A study of Mus musculus with 2 samples.

Results

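The 7 microRNA genes described here, Mir142, Mir146, Mir146b, Mir150, Mir155, Mir223 and Mir342, are typical of blood and tissue leukocytes. They were chosen by name, through the gene identifiers of the GENCODE M21 annotation, out of 2202 microRNA genes counted in the series. All 7 were found in the tables. In each library 6 of them reached 10 counts, and the same 6 passed the minimum of 20 counts, summed over the libraries, that a test required. The gene written Mir146 here is the one whose mature products are called miR-146a.

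The series holds 2 microRNA sequencing libraries of 1 group, adrenal gland tissue of the C57BL/6J mouse strain, with no treatment, mutant or control group. The adrenal gland makes steroid hormones in its cortex and catecholamines in its medulla, and it is bulk tissue that also holds vessels, blood and resident immune cells. The labels number the libraries as biological replicates 1 and 2, from separate tissue samples under 1 donor identifier, and do not state that these came from separate animals. A description calls the animals female while the sex field says it was not collected, and the age is given as unknown. In bulk tissue, fewer cells of a type and less RNA per cell cannot be told apart.

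MicroRNAs are short RNAs that guide Argonaute proteins to messenger RNAs, mainly through their seed, bases 2 to 8 of the mature strand. Each is cut from a hairpin, and either arm of the hairpin can give a mature strand. Mir142 is expressed across the blood lineages. Mir223 is known from granulocytes and other myeloid cells, Mir150 from mature B, T and NK lymphocytes, and Mir342 from lymphoid and myeloid cells. Mir146 is induced by NF-kB and dampens Toll-like receptor signalling through Irak1 and Traf6, and Mir155 rises when lymphocytes and macrophages are activated.

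The mature sequences below, from RefSeq (GRCm38.p6), show which members share a seed and which could be confused in counting. The seed is in capitals.
mmu-miR-146a-5p: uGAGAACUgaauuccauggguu
mmu-miR-146b-5p: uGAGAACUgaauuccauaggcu
mmu-miR-142a-5p: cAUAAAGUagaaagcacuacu
mmu-miR-142a-3p: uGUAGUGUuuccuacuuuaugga
mmu-miR-142b: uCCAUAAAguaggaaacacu
mmu-miR-150-3p: cUGGUACAggccugggggauag
mmu-miR-155-5p: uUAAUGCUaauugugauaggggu
mmu-miR-223-3p: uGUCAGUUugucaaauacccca
mmu-miR-342-3p: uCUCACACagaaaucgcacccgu

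The 13 mature strands of the members in this table, with miR-150-3p alone for Mir150, were compared. A mature strand from the 5p arm of Mir150 is not in the table, so no statement here on seeds or copies covers it. Among them miR-146a-5p and miR-146b-5p share the seed GAGAACU, and no other strands of different members share one. Their 5p strands differ by the substitutions G18A and U21C, with miR-146a-5p first and positions counted from 1 at its 5′ end. None of the 13 sequences occurs as an exact copy in the hairpin of another mouse gene. No gene outside the members has a mature strand in the table with the seed of any of the 13. The closest window in another hairpin differed from miR-155-5p at 8 bases, from miR-223-3p at 7 and from miR-342-3p at 8. The closest windows among the 13 were those of miR-146a-5p with Mir146b, at 2 bases, and of miR-142a-5p with Mir142b, the gene on the other strand of its locus, at 3 bases.

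The genes lie at separate loci in mm10. Mir146 is on the minus strand at chr11:43374397-43374461 and Mir150 on the plus strand at chr7:45121757-45121821, both outside other annotated genes. Mir142 (chr11:87756864-87756927, plus strand) lies in an intron of the lincRNA gene Mir142hg. Mir155 (chr16:84714140-84714204, plus strand) overlaps an exon of its lincRNA host Mir155hg. Mir223 (chrX:96242817-96242926, plus strand) overlaps an exon of F630028O10Rik. Mir342 (chr12:108658620-108658718, plus strand) lies in an intron of Evl, an actin regulator of the Ena/VASP family, and Mir146b (chr19:46342762-46342870, plus strand) in an intron of Mfsd13a.

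Leukocyte microRNAs were a small part of the adrenal microRNA pool. Levels are sense-strand counts per 1000000 counts over all microRNA genes (CPM), from 9137907 counts in replicate 1 and 6570375 in replicate 2. The 7 genes together had 3238 CPM in replicate 1 and 3559 CPM in replicate 2, a mean of 3399 ± 228 CPM (SD, n = 2), or 0.340% ± 0.0228 of all counts. For scale, the endothelial gene Mir126a alone had 61677 and 54325 CPM, and the neuroendocrine gene Mir375 had 50274 and 48617 CPM. The erythroid genes Mir451a, Mir144 and Mir486, a measure of red cells, summed to 144 and 295 CPM, without reads that have several alignments.

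**Figure D1:**
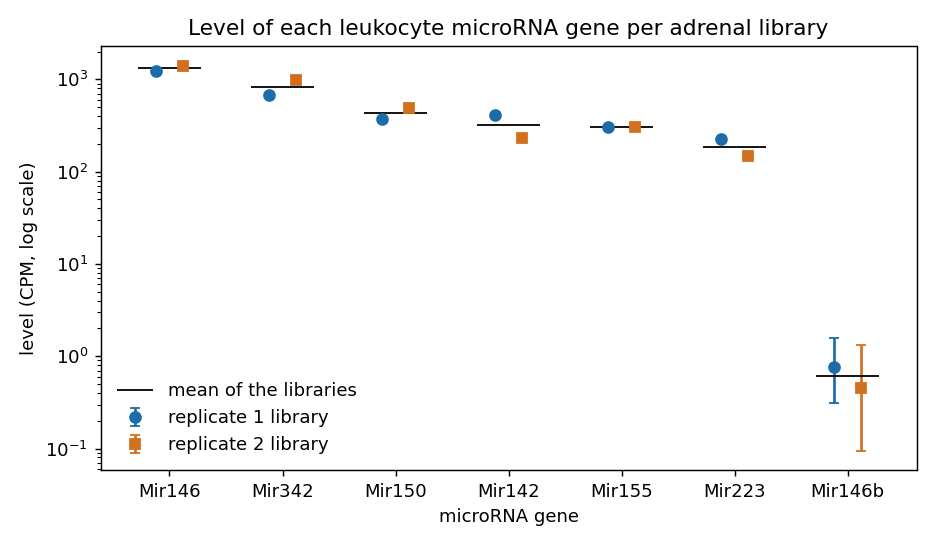
Level of each gene in CPM on a log axis, with replicate 1 as circles, replicate 2 as squares, the mean as a line, and exact 95% counting intervals as error bars. Mir146 and Mir342 stood above the rest in both libraries, and Mir146b lay below 1 CPM in both.

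Mir146, the regulator of innate signalling, was the leading member in both libraries. It had 1247 CPM in replicate 1 and 1396 CPM in replicate 2, from 11399 and 9172 counts, a mean of 1322 ± 105 CPM (SD, n = 2). This placed it at rank 68 of the 2202 genes by mean level.

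Mir146b, which carries the same seed, was nearly unread. It had 7 counts in replicate 1 and 3 in replicate 2, or 0.766 CPM (exact 95% counting interval 0.308 to 1.58) and 0.457 CPM (0.0942 to 1.33). Of the counts of both miR-146 genes, Mir146b held 0.0614% in replicate 1 and 0.0327% in replicate 2, with exact 95% intervals of 0.0247 to 0.126 and 0.00674 to 0.0955. The counts are per hairpin and do not tell the arms apart. With 2 bases between the 5p strands, whether those few counts are reads of Mir146 was not tested.

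Mir342 was second in both libraries, with 671 CPM in replicate 1 and 987 CPM in replicate 2. Its mean was 829 ± 224 CPM (SD, n = 2), at rank 84. Mir150, the lymphocyte gene, had 368 CPM in replicate 1 and 494 CPM in replicate 2, a mean of 431 ± 89.1 CPM at rank 113. For both genes replicate 2 was the higher library, and the lower value of Mir342 was above both values of Mir150.

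Mir142, the broad blood-lineage gene, had 416 CPM in replicate 1 and 231 CPM in replicate 2, from 3798 and 1521 counts. Its mean of 324 ± 130 CPM (SD, n = 2), at rank 123, carries the largest SD relative to its mean among the 6 tested members. Mir223, the granulocyte and myeloid gene, had 227 CPM in replicate 1 and 147 CPM in replicate 2, a mean of 187 ± 56.6 CPM at rank 152. Both genes were higher in replicate 1. Mir155, the activation-linked gene, had 308 and 304 CPM, a mean of 306 ± 3.11 CPM at rank 127.

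In order of mean level the genes ran Mir146, Mir342, Mir150, Mir142, Mir155, Mir223 and Mir146b. The values of Mir146, Mir342, Mir223 and Mir146b over the libraries did not overlap with those of their neighbours in that order. The values of Mir150 overlapped with those of Mir142, and those of Mir142 with Mir155, so the middle of the order was not resolved. Mir142 was in place 3 in replicate 1 and place 5 in replicate 2. A microRNA read covers a mature strand whatever the length of its hairpin, and dividing by the hairpin length (64 to 110 bases) left all 7 places as they were.

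**Figure D2:**
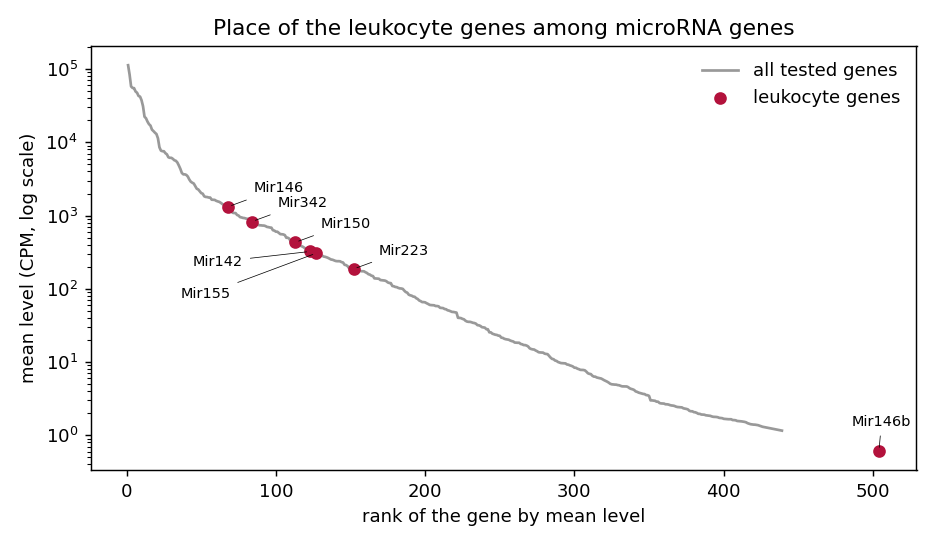
Mean level in CPM (log axis) against rank by mean level; the line is all 426 tested genes and the points are the leukocyte genes. The 6 tested members lie between ranks 68 and 152, and Mir146b, which was not tested, lies at rank 504.

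By the distance of log2(CPM + 1) over the 2 libraries, the genes with levels most like the members were as follows. Mir409 was nearest to Mir146, at a distance of 0.0497, with 1290 and 1385 CPM. Mir1843b was nearest to Mir155 (0.118) and Mir467d to Mir150 (0.187). Mir130b was nearest to Mir223 (0.234), Mir672 to Mir342 (0.249) and Mir296 to Mir142 (0.302). For Mir146b the nearest tested gene was Mir126b, at 0.696. Over 2 libraries this likeness describes level and library ratio only.

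The only comparison between samples that the design allows is of the libraries with each other. It asks how far leukocyte genes differ between adrenal samples of a strain. Mir142 and Mir223 were higher in replicate 1, and Mir342 and Mir150 were higher in replicate 2. Ratios are replicate 2 over replicate 1 after TMM scaling of library size, and the test is an exact two-sided binomial test of the counts with Benjamini-Hochberg adjustment over 426 genes. It knows counting error only, so it compares these libraries and says nothing of animals in general.

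Of the 6 tested members 3 were higher in replicate 2 and 3 in replicate 1, at adjusted p under 0.05. Of all tested genes 56.1% were called, 25.8% higher in replicate 2 and 30.3% higher in replicate 1. Among the 184 tested genes whose mean reached 100 CPM, where all 6 lie, 85.9% were called. A call for each of the 6 is therefore near the share called among all genes of such level, most of which differed by more than counting error. The sizes carry the description. The median log2 ratio of the 6 was -0.03, beside -0.03 over all tested genes. Their median absolute log2 ratio was 0.39, beside 0.23 over the genes with at least 100 CPM.

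Mir142 had the largest ratio, 1.93-fold higher in replicate 1 (log2 ratio -0.95, interval from counting error at 95% -1.03 to -0.86, adjusted p = 3.81e-111 by the exact binomial test). Of the 184 genes with at least 100 CPM, 19 (10.3%) had a larger absolute log2 ratio. Mir223 was 1.66-fold higher in replicate 1 (log2 ratio -0.73, interval -0.84 to -0.62, adjusted p = 8.14e-40 by the same exact test), and 28 of the 184 genes (15.2%) had a larger ratio. The myeloid gene and the broad blood-lineage gene were thus higher in the same library. So was the liver gene Mir122, at a log2 ratio of -0.94 (interval -1.10 to -0.79). Mir342, known from lymphoid and myeloid cells, was higher in the other library. Whether these ratios follow cell content was not tested.

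Mir342 was 1.37-fold higher in replicate 2 (log2 ratio 0.45, interval 0.40 to 0.50, adjusted p = 5.99e-69, exact binomial test). Mir150 was 1.25-fold higher there (log2 ratio 0.32, interval 0.25 to 0.39, adjusted p = 5.96e-19, exact binomial test). Larger ratios were found for 47 and 63 of the 184 genes, so neither stood far out. Mir146 had a log2 ratio of 0.06 (interval 0.02 to 0.10, adjusted p = 0.00725, exact binomial test), and 155 of the 184 genes had a larger one. Mir155 had a log2 ratio of -0.12 (adjusted p = 0.00748, exact binomial test). Scaled by total counts its ratio was -0.02 with an adjusted p of 0.729 by the same exact test, so its call rests on the scaling. With that scaling 5 of the 6 members were called, 3 higher in replicate 2 and 2 in replicate 1. Over all tested genes it called 57.0%, of which 35.2% of the tested genes were higher in replicate 2 and 21.8% in replicate 1.

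**Figure D3:**
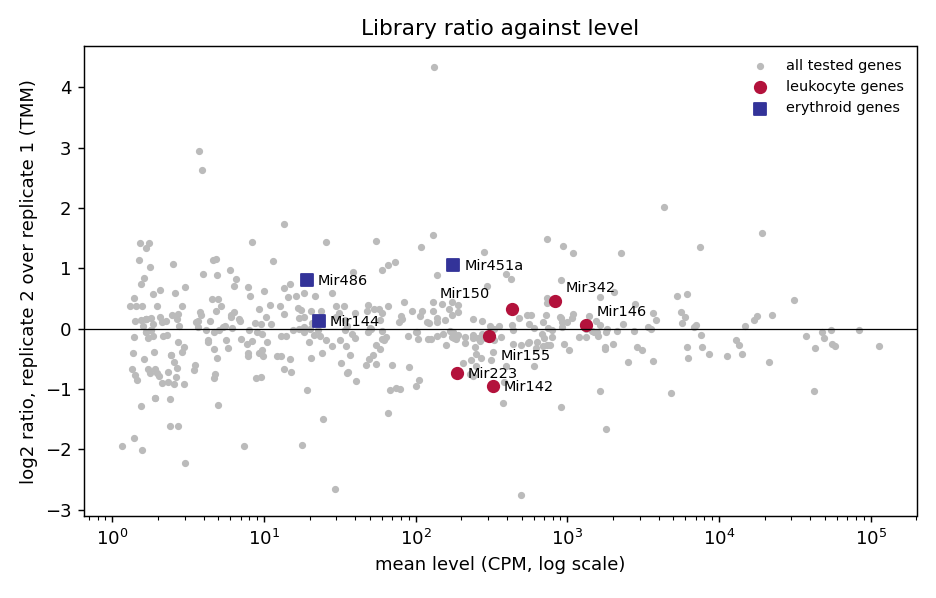
Log2 ratio of replicate 2 over replicate 1 after TMM scaling against mean CPM (log axis) for the 426 tested genes in grey, the leukocyte genes as circles and the erythroid genes as squares. Mir142 and Mir223 lie below 0, Mir342 and Mir150 above it, and Mir451a at 1.06.

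Ratios between members within a library do not depend on how library size is scaled. Mir142 stood at 1.13 times Mir150 in replicate 1 (exact 95% counting interval 1.08 to 1.18) and at 0.469 times Mir150 in replicate 2 (0.441 to 0.498), a 2.41-fold difference. Mir142 against Mir342 went from 0.620 (0.595 to 0.645) to 0.235 (0.222 to 0.248), a 2.64-fold difference. Mir223 against Mir342 went from 0.338 to 0.149, and Mir150 against Mir223 from 1.62 to 3.37. Mir142 against Mir146 went from 0.333 to 0.166, and Mir146 against Mir223 from 5.50 to 9.52. Smaller differences were found for Mir142 against Mir223, at 1.83 (1.74 to 1.94) and 1.58 (1.46 to 1.71), a 1.16-fold difference. Mir150 against Mir342 was at 0.549 and 0.501, a 1.10-fold difference. Mir146 against Mir155 was at 4.04 and 4.59, a 1.14-fold difference, and Mir146 against Mir150 at 3.39 and 2.83. Small differences were thus not limited to Mir142 with Mir223 and Mir150 with Mir342. Ratios to Mir146b rest on few counts and are not listed. Of the 21 pairs, 2 changed order between the libraries, Mir142 with Mir150 and Mir142 with Mir155.

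Shares within the summed counts of the 7 genes restate the ratios above from the same counts. Which cells the counts came from was not tested. Mir142 held 12.8% of the counts of the 7 genes in replicate 1 and 6.50% in replicate 2, with exact 95% intervals of 12.5 to 13.2 and 6.19 to 6.83. Mir223 held 7.0% and 4.12%. Mir342 held 20.7% (20.3 to 21.2) and 27.7% (27.2 to 28.3), and Mir150 held 11.4% and 13.9%. Mir146 held 38.5% and 39.2%, the smallest relative change of the 6. Mir155 held 9.53% and 8.54%.

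**Figure D4:**
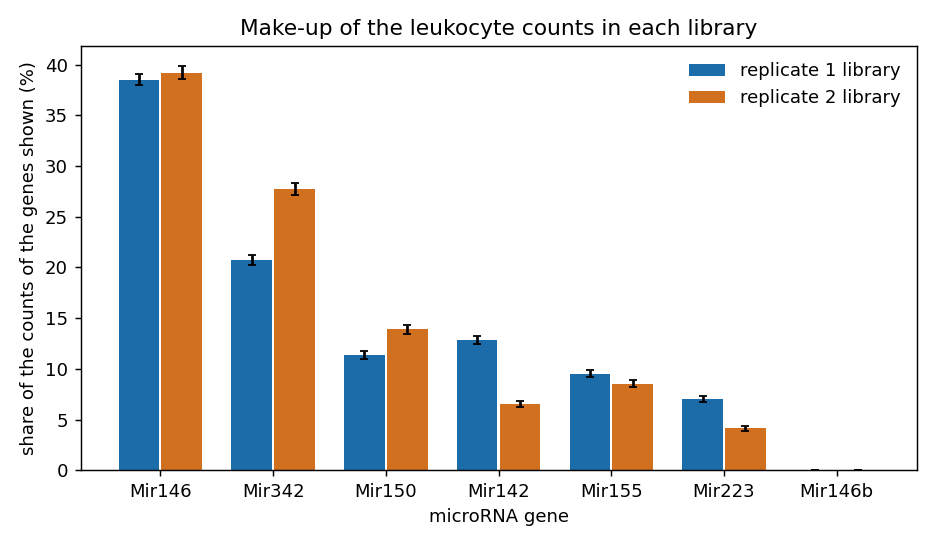
Share of the summed counts of the 7 genes held by each gene, in percent, for replicate 1 and replicate 2, with exact 95% binomial intervals. Mir142 and Mir223 held less in replicate 2, and Mir342 and Mir150 held more.

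The erythroid genes also differed between the libraries. Mir451a was at 110 CPM in replicate 1 and 245 CPM in replicate 2 (log2 ratio 1.06, interval 0.94 to 1.17), and Mir486 at 13.2 and 25.0 CPM (0.81, interval 0.46 to 1.16). Mir144, made from the same locus as Mir451a, was at 21.1 and 24.8 CPM (0.13, interval -0.18 to 0.44). Mir451a and Mir486 each share their position with a microRNA gene of the other strand. Whether reads with several alignments, which are in no gene count, lower the levels of these genes was not tested. No defining erythroid gene was at 0, and the part of red cell content in the leukocyte values was not tested. Mir122, the hepatocyte microRNA, was at 128 and 71.5 CPM (log2 ratio -0.94, interval -1.10 to -0.79). The kidney genes Mir192 and Mir204 summed to 78.6 and 87.1 CPM, with log2 ratios of -0.29 and 0.29. The part of neighbouring tissue in the leukocyte values was not tested.

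The level of Mir142 depends on keeping the strands apart. Its hairpin, from RefSeq (GRCm38.p6, chr11:87756864-87756927, plus strand), is shown with both mature arms in capitals because the whole hairpin lies inside the Mir142b gene of the minus strand.
Mir142 hairpin: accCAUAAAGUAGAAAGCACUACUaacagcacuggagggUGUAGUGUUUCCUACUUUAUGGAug

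The Mir142b hairpin of 115 bases reaches 23 bases past Mir142 on the low-coordinate side and 28 on the other. In the column of counts on either strand Mir142 had 0 counts in both libraries, against 3798 and 1521 on its own strand. The other 6 members had the same counts in both columns except Mir150, which had 3247 in place of 3246 in replicate 2. Of the 426 tested genes, 27 (6.34%) kept under 1% of their counts in the either-strand column, and all 27 share their position with a microRNA gene of the other strand. Mir142 was the 12th of these by level. The reads called ambiguous in that column were 875601 and 570517, and the counts of Mir142 were 0.434% and 0.267% of those numbers.

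Mir142b had no counts on its own strand in either library, which allows up to 3 counts. It had 3800 and 1521 counts on the opposite strand, which is the strand of Mir142. Mir142 in turn had no opposite-strand counts, which allows a share of up to 0.0790% in replicate 1 and 0.197% in replicate 2. The closest stretch of the Mir142b hairpin to miR-142a-5p differs by A11G, G14A and U21A, with miR-142a-5p first and positions counted from its 5′ end. The other members had 0 opposite-strand counts in both libraries except Mir150, with 1 in replicate 2. These limits cover counting error only.

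**Figure D5:**
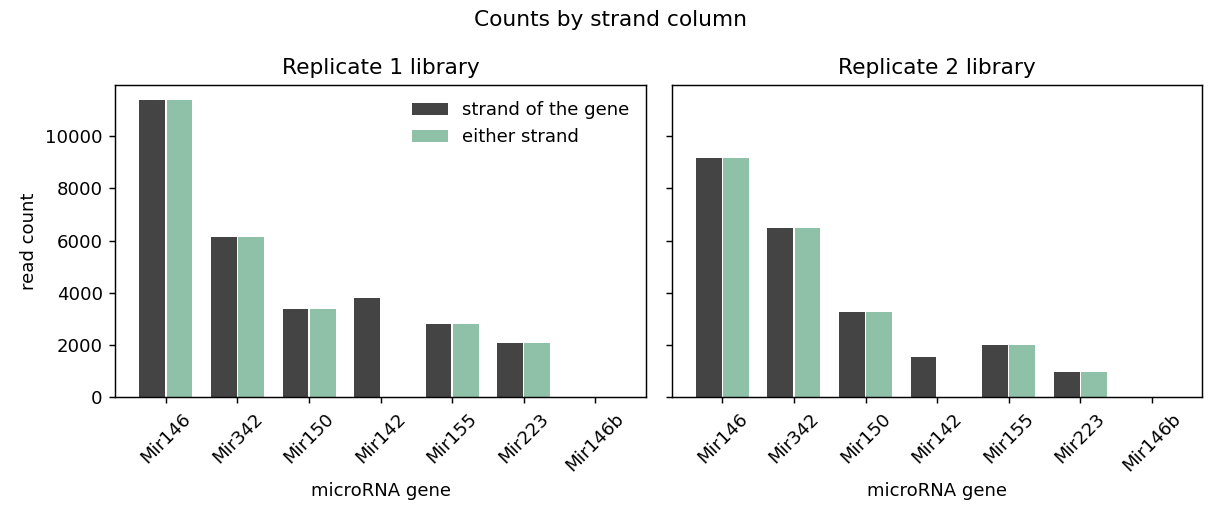
Read counts of each gene in the column for the strand of the gene and in the column for either strand, for replicate 1 (left) and replicate 2 (right). The bars of a gene are equal or differ by 1 count except for Mir142, which is at 0 in the either-strand column of both libraries.

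A list of 26 other microRNA genes studied in immune cells held 10.4% of the counts in replicate 1 and 12.7% in replicate 2, and 24 were tested. Of these, 10 were higher in replicate 2, 11 in replicate 1 and 3 did not pass, at a median log2 ratio of -0.04. Beside them, 56.1% of all tested genes were called, and 85.9% of those with at least 100 CPM, a level that not all 24 reach. Under total-count scaling the split was 11 and 7, and 6 did not pass, beside 57.0% called over all tested genes. The leading 3 were Mir10a at 54938 ± 2159 CPM, Mir21a at 19171 ± 14292 CPM and Mirlet7e at 14885 ± 1103 CPM (SD, n = 2), which are known from many cell types. Most of the higher share in replicate 2 lay in Mir21a, at 9066 CPM in replicate 1 and 29277 in replicate 2. The whole list summed to 104113 and 127450 CPM. The list holds genes with near-identical copies, such as those of Mir125b and Mir181a, whose counts leave out reads with several alignments.

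Within that list Mir511 and Mir147 were picked out after their values were seen, because they are tied to macrophages. Mir511, in an intron of the mannose receptor gene Mrc1, had 39 counts in replicate 1 and 82 in replicate 2, or 4.27 and 12.5 CPM. It was 2.70-fold higher in replicate 2 (log2 ratio 1.44, interval 0.88 to 2.03), on few counts. The list it was picked from went both ways, as given above. Mir147, which Toll-like receptor stimulation induces, had 137 and 104 counts and a log2 ratio of -0.02 (interval -0.41 to 0.35).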

How the data were processed

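MicroRNA sequencing reads of 2 adrenal libraries were counted by the authors. The deposited tables hold raw read counts for 2202 microRNA genes on mm10 with GENCODE M21, per the description deposited beside them. The labels' protocols point to adapter trimming, while aligner and counter are not given in the sources used. The columns, which have no header, were read from their values as unstranded, sense and antisense counts, in that order. Rows that name no gene (51.2% and 54.6% of reads, of which 35.9% and 36.0% of all reads had several alignments) were left out of library sizes. Counts are per hairpin, so the arms of a gene are not told apart, and reads with several alignments are in no gene count.

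CPM is sense counts per 1000000 sense counts over genes. Genes with at least 20 counts over both libraries were tested with an exact binomial test (scipy 1.17.1) against library sizes scaled by TMM (edgeR 4.0.16), which lowers log2 ratios by 0.10 against total counts. The test was also tried with total counts, DESeq2 1.42.0 size factors, counts on either strand and no filter. Log2 ratios add 0.5 counts, intervals are exact at 95%, and a count of 0 allows up to 3. Its p-values describe only these libraries, whose differences may be technical. The genes named are the 7 members, the nearest gene to each by level, the marker genes and the leading 3 of the immune list. Mir511, Mir147, Mir142b, Mir125b and Mir181a are named outside this rule, after their values were seen. The members and lists were chosen with earlier results of these data known. Sequences come from RefSeq (GRCm38.p6), which had entries for 7 of 7 members and a hairpin at the annotated coordinates for 6.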

Additional observations from a re-analysis of the deposited data

How the results depend on the processing

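The count of 6 leukocyte genes differing between the libraries became 5 with total counts (without Mir155) and 5 with counts on either strand (where Mir142 has none), and remained at 6 with DESeq2 size factors and with no filter on low counts. Over all genes the count was 239 of 426 tested, 243 of 426 with total counts and 235 of 426 with DESeq2 size factors. It was 217 of 400 on either strand and 233 of 818 with no filter, where the share called was lower. Of the members, 5 were tested on either strand and 7 with no filter. Of 17 recomputed log2 ratios of the 6 tested genes, 16 kept their direction and their side of the threshold, and 1, that of Mir155 with total counts, kept its direction only. The 3 of Mir146b, which was not tested, kept their direction. The summed level was 3238 CPM without replicate 2 and 3559 CPM without replicate 1. Per 1000000 of all reads in the table, in place of reads on genes, it was 1598, since the rows that name no gene enter the total. In the either-strand column it was 3383 CPM, with Mir142 at 0. The total of that column lacks genes that overlap on opposite strands, so the other members had higher CPM there. Mir146 was at 1454 CPM beside 1322, and Mir155 at 337 beside 306. The near-equal sum therefore does not mean unchanged levels. No paired analysis was possible because the series holds 1 group. Depth limits Mir146b, at 7 and 3 counts, whose ratio between libraries has an interval of -3.43 to 1.28 (log2). The other members had 963 counts or more in each library, so their counting error was small beside their differences, except for Mir146 and Mir155.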
